A study of Mus musculus with 24 samples.

Results

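The hippocampus of APP/PS1 mice was compared with that of wild-type mice 1 month after the end of a gavage period, using the 3 arrays labelled APP-PS1_WASHOUT and the 5 labelled WT_WASHOUT, which are 8 of the 24 arrays of the study. Samples were put in these groups by their titles. All samples came from male mice under the name B6.Cg-Tg(APPswe,PSEN1dE9)85Dbo/J, a line in which carriers are labelled + APP + PSEN and their wild-type counterparts - APP - PSEN. Both groups had received water, not urolithin A, by gavage from month 2 to month 7 and then nothing for 1 month. The characteristics give their age as 9 months, whereas the design text places their collection 1 month after month 7. Urolithin A is a compound that gut bacteria make from plant ellagitannins, and 2 other groups had received it: APP-PS1_UA (n = 4, of which 3 are used here) ended at the end of gavage, and APP-PS1_UA-WASHOUT (n = 5) lived through the washout month. The characteristics give the age of APP-PS1_UA as 8 months and that of APP-PS1_UA-WASHOUT as 9 months. The sources disagree on the daily dose of urolithin A, which the protocol puts at 200 mg/kg and the design text at 20 mg/kg. The water groups taken at the end of gavage were APP-PS1_CTR (n = 3) and WT_CTR (n = 4), aged 8 months in the characteristics. In carriers of this strain a mutant amyloid precursor protein and a mutant presenilin 1 are made from transgenes under the mouse prion protein promoter, which is active in neurons and other cells, so the model overproduces amyloid peptide without the tangles of the human disease. The labels do not tie samples to litters or cages, and p-values measure only the spread between the samples of a group.

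Amyloid plaques form in the hippocampus of such mice during the months covered here. Microglia, the resident phagocytes of the brain, gather at plaques and switch from a resting programme (P2ry12, Tmem119, Cx3cr1) to a plaque-associated programme that depends on the receptor Trem2 and its adaptor Tyrobp and includes Cst7, Itgax, lysosomal proteases and CC chemokines. Astrocytes around plaques raise the filament protein Gfap. In bulk tissue, more cells of a type and more RNA per cell cannot be told apart.

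The 2 groups did not share an array slide. All APP-PS1_WASHOUT arrays lay on slide 3 (row 1 of 2) with the APP-PS1_UA-WASHOUT arrays, and all WT_WASHOUT arrays lay on slide 2 (replicate 1 in row 1, the others in row 2) with APP-PS1_UA replicates 2 to 4. Slide 3 stood apart: the first principal component of all arrays held 47.1% of the variance, with slide 3 between 84.2 and 119 and slides 1 and 2 between -66.5 and -30.4. Transgene, slide and, in large part, row therefore cannot be told apart within these 8 arrays. Differences are read here against 2 others made with other arrays. The first is the slide difference, APP-PS1_UA-WASHOUT (slide 3) minus the slide 2 arrays of APP-PS1_UA, which crosses the same 2 slides within carriers given urolithin A. Because it spans the washout month, age and time since the last gavage of the agent differ along with the slide. Taking the slide difference off takes their part off too. It also crosses the rows of the slides the opposite way: its slide 2 arrays lay in row 1 and 4 of its 5 slide 3 arrays in row 2, so taking it off adds to any difference between rows instead of removing it. The second is the end-of-treatment contrast, APP-PS1_CTR minus WT_CTR, which lay wholly on slide 1, in different rows. The washout contrast less the slide difference was tested in its own right. Levels are log2 of the background-subtracted signal minus the 75th percentile of its array, so 0 is a bright probe and a difference of 1 is a doubling; probes differ in brightness, and levels of different genes are not compared. Tests are limma fits over all arrays with Benjamini-Hochberg adjustment over 35259 features, called under 0.05, and values after ± are SD over arrays or, for differences, standard errors (SE).

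The tissue markers were as labelled. Hippocampal neuron markers (Prox1, Wfs1, Spink8, Neurod6), astrocyte markers (Aqp4, Aldh1l1, Slc1a2), myelin markers (Mbp, Mog) and the microglial markers Tmem119, P2ry12 and Cx3cr1 were well above background on all 8 arrays. Arrays within a group correlated at 0.977 to 0.990 in WT_WASHOUT and at 0.985 to 0.989 in APP-PS1_WASHOUT. Between 73.8% and 76.9% of spots were well above background in APP-PS1_WASHOUT, 70.5% to 71.6% in WT_WASHOUT and 63.7% to 74.8% in APP-PS1_UA-WASHOUT.

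Across all features the washout contrast was large and mostly had the sign of the slide difference, in which slide, stage and row cannot be told apart. The washout contrast called 9702 of 35259 features (27.5%), 6984 higher in APP-PS1_WASHOUT (19.8%) and 2718 lower (7.71%). The split depends on how arrays are scaled: centring on the array median gave 5813 higher and 4446 lower, quantile normalization 4568 and 5332, and the authors' standardized values 4666 and 6658, while the median change of all features moved from 0.07 to -0.03 and -0.06 under the first 2 of these. The slide difference, which holds no array of this contrast, called 10924 features (31%), 20.1% higher and 10.9% lower. Of the 9702 calls, 9239 (95.2%) had a slide difference of the same sign, against 76.1% of all features, and 4188 (43.2%) had one at least as large. Across genes the 2 differences correlated at r = 0.82 over 35259 features, which share array slides and are not independent replicates. With the slide difference taken off, 22 features (0.0624%) were called, 17 higher (0.0482%) and 5 lower (0.0142%), and 3226 had an unadjusted p under 0.05. With array row in the fit 12 features were called, of which 5 were among the 22. The end-of-treatment contrast called 60 features (0.17%), 59 of them higher in carriers (0.167%) and 1 lower (0.00284%). Of these 60, 52 (86.7%) were also called in the washout contrast with the same sign and 58 (96.7%) had the same sign less the slide difference, where 27.5% of all features were called and 51.4% had the same sign less the slide difference. Features called in the washout contrast and, with the same sign, less the slide difference numbered 18 (0.0511%), of which 15 were higher and 3 lower, and 12 had a gene symbol. The test of the washout against the end-of-treatment difference called 5029 features (14.3%), 11.6% higher and 2.65% lower. Every APP-PS1_WASHOUT array lay above every WT_WASHOUT array for 21.2% of features and below for 9.75%, or without overlap for 31% in all. Of the 18, 10 were also called at the end of treatment.

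**Figure D1:**
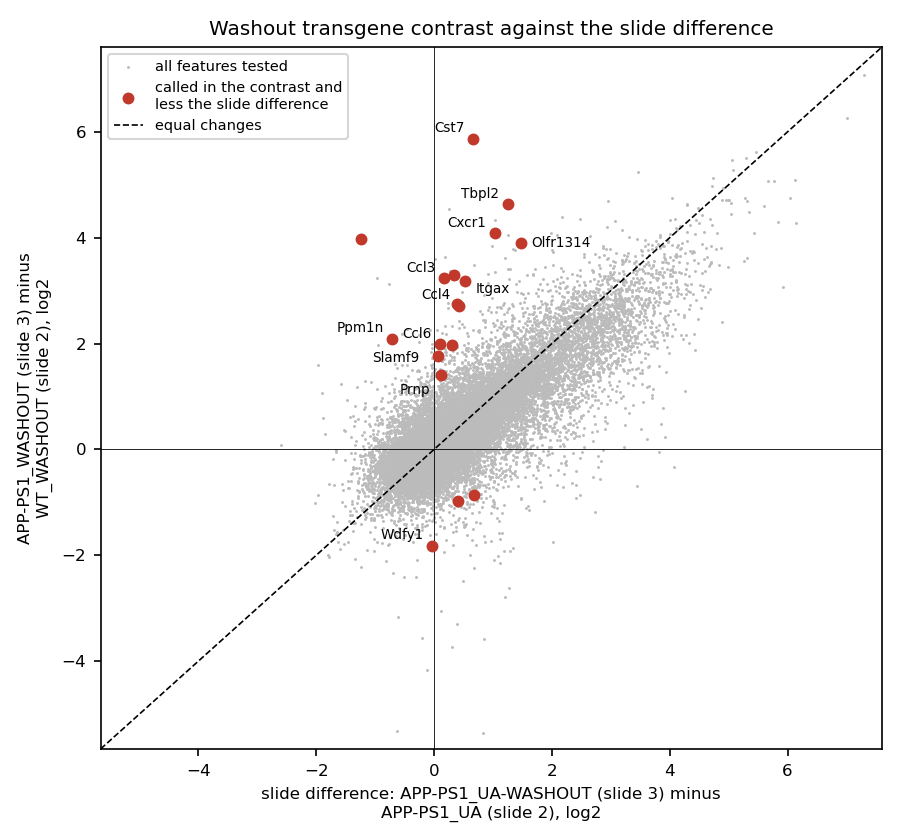
Washout transgene contrast (vertical axis, log2) against the slide difference in the urolithin A groups (horizontal axis, log2), 1 point per feature over 35259 features; red points are the 18 features called in the contrast and, with the same sign, less the slide difference, with gene symbols where the reference held one. Most points lie along the dashed line of equal changes (r = 0.82), and Cst7 lies farthest above it among the named genes, at 5.87 against a slide difference of 0.65.

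In all, 8 genes with a symbol were called in all 3 tests with the same sign: 7 were higher in the carriers and 1 was lower. Cst7, Itgax, Ccl3, Ccl4, Ccl6 and Slamf9 are expressed by activated microglia, Prnp encodes the prion protein, and Wdfy1 encodes an endosomal adaptor in toll-like receptor signalling.

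Cst7 encodes cystatin F, an inhibitor of lysosomal cathepsins and a defining gene of plaque-associated microglia. Its log2 level was -4.97, -5.29, -4.77, -5.97 and -5.25 on the WT_WASHOUT arrays and 0.87, 1.07 and -0.07 on the APP-PS1_WASHOUT arrays. The groups did not overlap, and even the lowest carrier array lay far above the highest wild-type array. The difference was 5.87 ± 0.35 (SE, adjusted p = 4.35e-10), a 58.6-fold higher signal. Its slide difference was 0.65, which left 5.22 ± 0.50 (adjusted p = 9.25e-05), and the end-of-treatment difference was 5.92 ± 0.36 (adjusted p = 1.65e-08).

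Itgax encodes CD11c, an integrin subunit of dendritic cells and plaque microglia. Its WT_WASHOUT levels were -5.12, -5.70, -4.45, -5.37 and -5.12, and its APP-PS1_WASHOUT levels -1.98, -1.44 and -2.49. Every carrier array was above every wild-type array. The difference was 3.18 ± 0.29 (SE, adjusted p = 1.88e-07), 2.66 less the slide difference (adjusted p = 0.0206) and 3.00 at the end of treatment.

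Ccl3 and Ccl4 encode neighbouring CC chemokines that attract leukocytes. Ccl3 lay at -4.69, -5.34, -3.50, -5.65 and -4.37 in WT_WASHOUT and at -1.44, -1.21 and -1.78 in APP-PS1_WASHOUT, a 9.41-fold difference (log2 3.23 ± 0.37, adjusted p = 1.9e-06). Ccl4 lay at -4.75, -4.96, -4.23, -4.80 and -4.91 in WT_WASHOUT and at -1.79, -1.49 and -2.77 in APP-PS1_WASHOUT, a 6.57-fold difference (log2 2.72 ± 0.27, adjusted p = 3.47e-07). The groups did not overlap for either gene, although APP-PS1_WASHOUT replicate 3 was the lowest carrier array for both. With the slide difference taken off, Ccl3 stood at 3.07 (adjusted p = 0.0274) and Ccl4 at 2.30 (adjusted p = 0.022).

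Ccl6 encodes a further CC chemokine of myeloid cells. It measured -1.98, -1.66, -1.32, -1.82 and -1.75 in WT_WASHOUT and 0.52, 0.56 and -0.24 in APP-PS1_WASHOUT (difference 1.98 ± 0.24, adjusted p = 2.94e-06), and 1.89 remained less the slide difference (adjusted p = 0.0383). Slamf9 encodes a SLAM family receptor of myeloid cells. It measured -2.60, -2.99, -2.42, -2.63 and -2.44 in WT_WASHOUT and -0.82, -0.79 and -0.93 in APP-PS1_WASHOUT, the narrowest carrier group of the 6 genes. Its difference was 1.77 ± 0.17 (adjusted p = 1.79e-07) and 1.69 less the slide difference (adjusted p = 0.00484). Within slide 3, Slamf9 was 0.58 higher in APP-PS1_WASHOUT than in APP-PS1_UA-WASHOUT, whereas for Ccl3, Ccl4 and Ccl6 that difference was between -0.14 and -0.08.

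The brightest Prnp probe measured 5.96 to 6.13 (median 6.05) on the 5 arrays of WT_WASHOUT and 7.40, 7.55 and 7.38 in APP-PS1_WASHOUT, a difference of 1.40 ± 0.09 (SE, adjusted p = 1.85e-09) and 1.28 less the slide difference (adjusted p = 0.000111). A second Prnp probe differed by -0.12, and by 0.01 less the slide difference, so the 2 probes of the gene disagree. With both averaged, the difference less the slide difference was 0.64 (adjusted p = 0.171). Wdfy1 fell: 2.80, 2.56, 2.51, 2.83 and 2.64 in WT_WASHOUT against 0.93, 0.90 and 0.74 in APP-PS1_WASHOUT, a difference of -1.81 ± 0.12 (SE, adjusted p = 2.63e-09) and -1.78 less the slide difference (adjusted p = 9.25e-05). Of Wdfy1, 3 probes were kept, and their washout differences ran from -1.81 to 4.00, while less the slide difference all lay below 0, from -1.78 to -0.60. With the probes averaged, the Wdfy1 washout difference was 0.21 and not called.

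The slide 2 arrays alone gave the same direction for all 8 genes. There APP-PS1_UA replicates 2 to 4, which are treated carriers, differed from the same WT_WASHOUT arrays by 5.63 for Cst7, 3.09 for Itgax, 3.21 for Ccl3, 2.40 for Ccl4, 1.97 for Ccl6, 1.11 for Slamf9, 1.31 for Prnp and -1.84 for Wdfy1. At the end of treatment, with other arrays on slide 1, carriers differed from wild type by 2.70 for Ccl3, 2.80 for Ccl4, 1.69 for Ccl6, 1.53 for Slamf9, 1.49 for Prnp and -1.59 for Wdfy1. The slide 2 values share the WT_WASHOUT arrays with the washout contrast. They are also part of the contrast less the slide difference, which is their sum with APP-PS1_WASHOUT minus APP-PS1_UA-WASHOUT. The 8 genes were picked by that test and by the end-of-treatment test, so these shared directions are a description and not separate support. The test of the washout difference against the end-of-treatment difference gave adjusted p between 0.458 and 0.966 for the 8 genes.

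In the test less the slide difference, Cst7, Slamf9, Prnp and Wdfy1 stayed called when any 1 of its 16 arrays was left out. Itgax lost its call without APP-PS1_WASHOUT 1 or 2 or APP-PS1_UA-WASHOUT 1 (adjusted p up to 0.061). Ccl4 lost it without APP-PS1_UA 3, WT_WASHOUT 2 or APP-PS1_WASHOUT 1 or 2 (up to 0.0796). Ccl3 lost it without APP-PS1_UA 2 or 3, WT_WASHOUT 2, APP-PS1_WASHOUT 1 or 2, or APP-PS1_UA-WASHOUT 1 or 5 (up to 0.0982). Ccl6 lost it in 11 of 16 cases (up to 0.127), all but those without APP-PS1_UA 4, WT_WASHOUT 3, APP-PS1_WASHOUT 3 or APP-PS1_UA-WASHOUT 2 or 4. With array row in the fit, Cst7 (5.14, adjusted p = 0.0465), Prnp (1.32, 0.0465) and Wdfy1 (-2.04, 0.0148) stayed called and the other 5 had adjusted p between 0.0861 and 0.127.

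**Figure D2:**
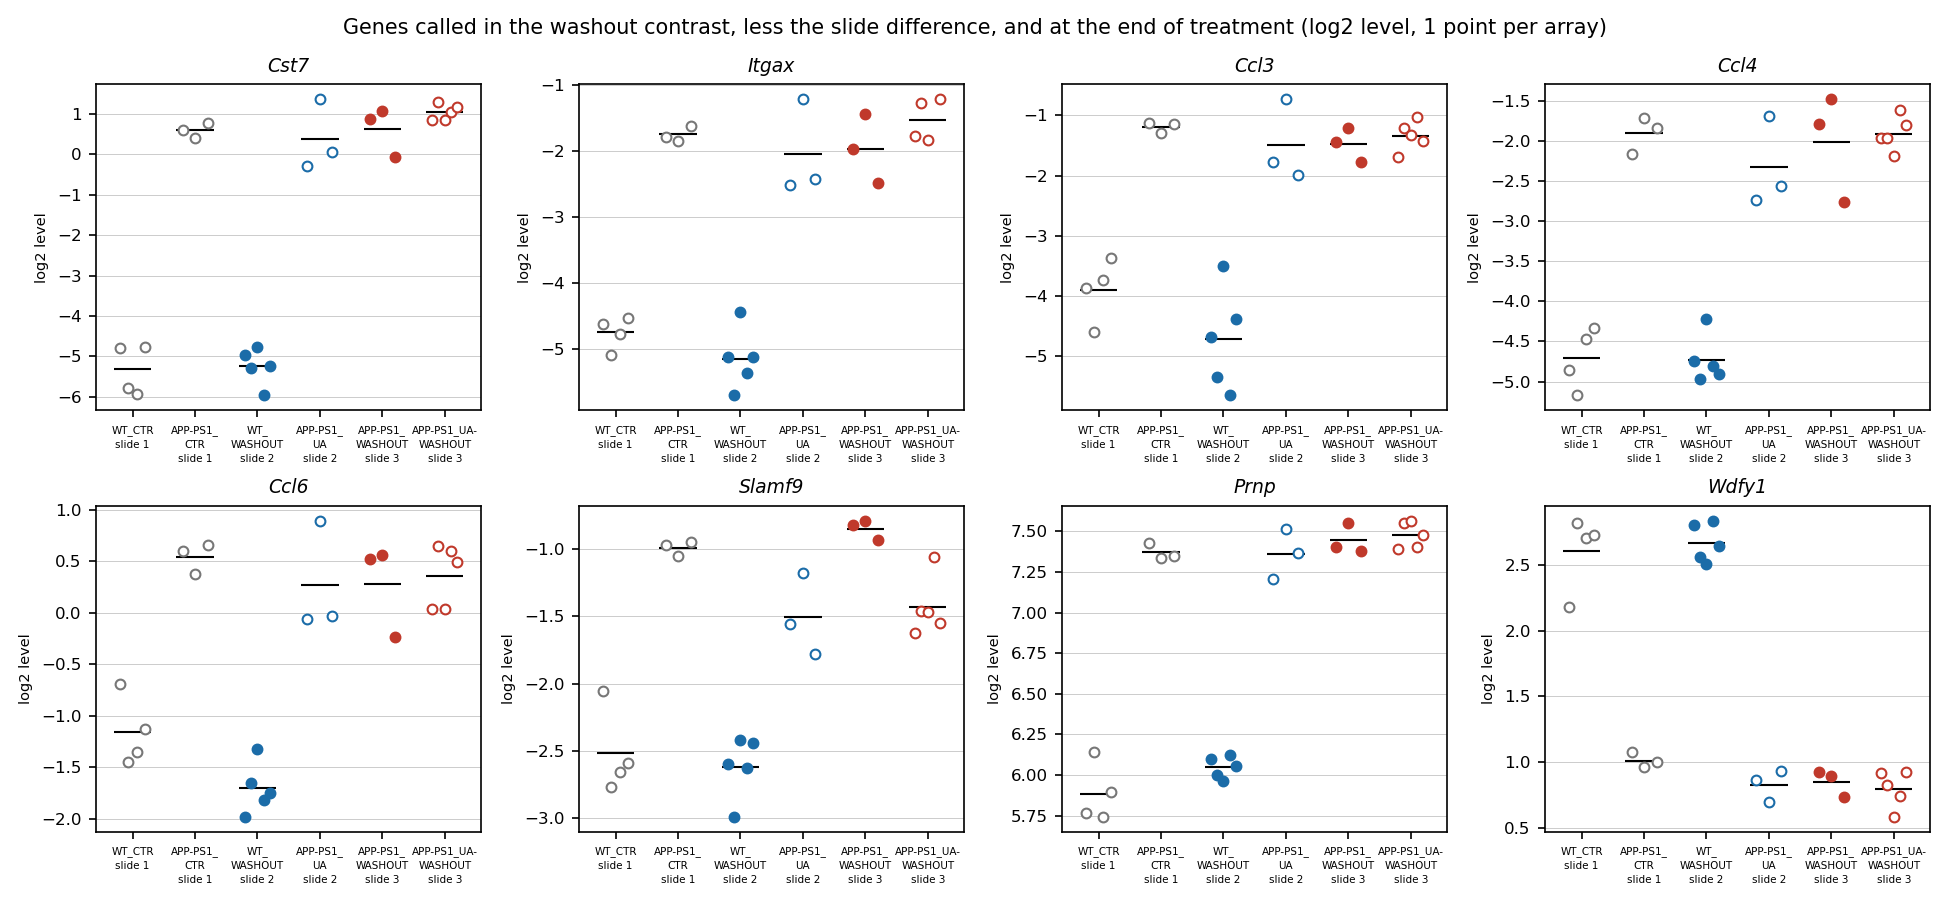
Log2 level (vertical axis, log2 signal minus the 75th percentile of the array) of 8 genes on each array, 1 point per array, by group and slide; filled points are WT_WASHOUT and APP-PS1_WASHOUT, bars are group means, spots with an outlier flag are left out, and the APP-PS1_UA array of slide 1 is not drawn. For each gene the carrier groups of slides 1, 2 and 3 lie together and apart from both wild-type groups, with Wdfy1 the gene that is lower in carriers.

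Promoters of the microglial genes are shown because their members moved together, and PU.1, the ETS-family factor that marks myeloid cells, binds purine-rich sites with a GGAA core. RefSeq promoter windows (GRCm38.p6) were found for 5 of the 6, Cst7, Itgax, Ccl3, Ccl6 and Slamf9. The 250 bases before each start follow, 5′ to 3′ on the gene's strand, with GAGGAA and GGAAGT on either strand in capitals.
Cst7 (chr2:150570165-150570414, + strand): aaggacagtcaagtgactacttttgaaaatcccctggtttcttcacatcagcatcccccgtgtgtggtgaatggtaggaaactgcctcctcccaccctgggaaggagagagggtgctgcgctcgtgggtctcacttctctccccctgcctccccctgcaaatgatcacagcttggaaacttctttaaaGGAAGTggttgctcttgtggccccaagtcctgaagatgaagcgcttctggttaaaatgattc
Itgax (chr7:128129300-128129549, + strand): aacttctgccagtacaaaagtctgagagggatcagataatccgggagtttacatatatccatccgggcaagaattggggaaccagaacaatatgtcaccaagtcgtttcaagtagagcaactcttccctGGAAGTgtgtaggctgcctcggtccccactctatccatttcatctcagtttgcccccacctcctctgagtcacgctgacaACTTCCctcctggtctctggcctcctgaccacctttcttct
Ccl3 (chr11:83649379-83649628, - strand): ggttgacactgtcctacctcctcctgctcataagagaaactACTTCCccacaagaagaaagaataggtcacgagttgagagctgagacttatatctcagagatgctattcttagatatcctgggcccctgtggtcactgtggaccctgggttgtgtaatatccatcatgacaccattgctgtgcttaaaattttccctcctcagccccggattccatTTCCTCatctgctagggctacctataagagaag
Ccl6 (chr11:83593088-83593337, - strand): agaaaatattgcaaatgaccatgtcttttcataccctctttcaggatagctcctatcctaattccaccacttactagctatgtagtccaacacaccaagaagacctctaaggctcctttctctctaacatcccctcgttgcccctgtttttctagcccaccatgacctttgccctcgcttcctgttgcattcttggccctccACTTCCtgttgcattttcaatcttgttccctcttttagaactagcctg
Slamf9 (chr1:172475110-172475359, + strand): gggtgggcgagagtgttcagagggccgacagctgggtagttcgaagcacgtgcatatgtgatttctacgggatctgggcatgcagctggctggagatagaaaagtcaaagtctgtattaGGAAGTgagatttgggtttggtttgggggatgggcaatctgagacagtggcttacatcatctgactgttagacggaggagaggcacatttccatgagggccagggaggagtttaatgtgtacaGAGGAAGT

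All 5 windows held GGAAGT, which 20% of 27025 RefSeq mouse promoter windows of this length hold, and 2 held GAGGAA, against 23.1%. In Slamf9 the 2 motifs overlap at the last bases before the start. Also searched were TGAGTCA (AP-1), found in the Itgax window and in 4.43% of windows, and TGACGTCA (the cyclic AMP response element), found in none of the 5 and in 1.62% of windows. These are letter matches chosen with the sequences in view, not sites of binding.

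A further 4 genes were called in the washout contrast and less the slide difference but not at the end of treatment: Tbpl2, a germ-cell TATA-binding protein, Cxcr1, a chemokine receptor of neutrophils, Olfr1314, an olfactory receptor, and Ppm1n, a protein phosphatase. Their signal was near background. Tbpl2, Cxcr1 and Olfr1314 were well above background on the 3 APP-PS1_WASHOUT arrays and on no other array of the study, so they passed the filter only through the group where they are high, and their calls are given as a description. Tbpl2, Cxcr1 and Olfr1314 were not well above background on any WT_WASHOUT array and Ppm1n on 1, whereas all 4 were well above it on all 3 APP-PS1_WASHOUT arrays. The signal of Tbpl2 was at least 5.71-fold higher in the carriers, that of Cxcr1 at least 4.07-fold and that of Olfr1314 at least 3.52-fold, each against the lowest signal well above background. For Tbpl2, 1 carrier value was dropped as an outlier spot. On slide 3 itself, Cxcr1 measured -5.08, -2.92 and -4.46 in APP-PS1_WASHOUT and -7.54 to -6.66 in APP-PS1_UA-WASHOUT, where none of the 4 genes was well above background on any array. On slide 2 the treated carriers differed from WT_WASHOUT by -0.16 for Tbpl2, 0.18 for Cxcr1, -0.05 for Olfr1314 and 0.44 for Ppm1n. With a normexp background correction none of the 4 was called less the slide difference (adjusted p 0.421 to 0.742). Without the background filter, which lets another probe be the brightest of a gene, Tbpl2 differed by -0.07, and with its 2 probes averaged Ppm1n stood at -0.00 less the slide difference. Without APP-PS1_UA 2, Ppm1n was not called less the slide difference either (adjusted p = 0.0625).

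Genes known to rise in microglia at plaques were called higher in 21 of 36 measured members and lower in 0, where 19.8% of all features were called higher, with a median change of 0.66 beside 0.07 for all features. Their median slide difference was 0.29, and less it the median was 0.40 beside 0.02, with 31 of 36 members above 0, against 18660 of 35259 features, and 4 called. Under quantile normalization the median washout change of the list was 0.39. At the end of treatment the median was 0.64 and 11 were called. The mean level of the list was 0.42 to 0.78 on the WT_WASHOUT arrays and 1.47 to 1.70 on the APP-PS1_WASHOUT arrays, with no overlap. It was 1.06 to 1.60 in the slide 2 treated carriers.

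Trem2, the lipid-sensing receptor of these cells, measured 1.80, 1.74, 2.04, 1.90 and 1.86 in WT_WASHOUT and 3.08, 3.44 and 2.68 in APP-PS1_WASHOUT, a 2.30-fold difference (log2 1.20 ± 0.17, adjusted p = 1.59e-05). Less the slide difference it was 1.01 (adjusted p = 0.222), and at the end of treatment 1.09 (adjusted p = 0.00606). Tyrobp, its signalling adaptor, measured 1.39 to 1.56 in WT_WASHOUT and 2.38 to 2.68 in APP-PS1_WASHOUT (difference 1.03, adjusted p = 2.49e-05; 0.70 less the slide difference, adjusted p = 0.357). Cd68, a lysosomal membrane protein of phagocytes, rose by 1.03 (adjusted p = 4.2e-05), with 0.59 less the slide difference (adjusted p = 0.453). The groups did not overlap for any of these 3 genes, nor for 31% of all features.

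Baiap2l2 and Apoe, also of this list, had slide differences above or close to their washout changes. Baiap2l2, which encodes a membrane-bending protein, had the list's second largest change, 3.35 (adjusted p = 5.42e-08), but a slide difference of 4.08, and its end-of-treatment difference was 0.42. Apoe, the main lipoprotein of the brain, measured 6.75 to 7.15 in WT_WASHOUT and 7.24 to 7.32 in APP-PS1_WASHOUT, a change of 0.36 (adjusted p = 0.0184) with a slide difference of 0.35 (adjusted p = 0.0196), which left 0.00. Its washout call ended without APP-PS1_WASHOUT 1 or 2 (adjusted p up to 0.0627), and under quantile normalization its change was -0.10. Tyrobp and Cd68 were named with their values known.

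Identity genes of resting microglia were called higher in 10 of 18 and lower in 0 (19.8% of all features were higher), with medians of 0.42 in the washout contrast, 0.17 in the slide difference, 0.29 less it and 0.26 at the end of treatment. P2ry12 and Tmem119 were not called: P2ry12 differed by 0.07 (adjusted p = 0.701) and Tmem119 by 0.29 (adjusted p = 0.139). The 2 largest changes of the list belonged to genes that changed as much or nearly as much between slides. Siglech, a sialic acid-binding lectin, rose by 1.66 beside a slide difference of 1.83, and Itgam, which encodes CD11b, by 1.35 beside 1.20. Their end-of-treatment differences were 0.58 and 0.23, neither called.

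Receptors for the Fc part of antibodies were called in 4 of 6 members, all higher, where 19.8% of all features were. All 6 lay above 0 in the washout contrast, less the slide difference and at the end of treatment, with medians of 0.61, 0.60 and 0.74 and a median slide difference of 0.08. Fcgr2b, the inhibitory receptor, measured -3.67, -3.28, -2.83, -3.30 and -3.03 in WT_WASHOUT and -2.44, -1.81 and -2.41 in APP-PS1_WASHOUT, a 2.00-fold difference (adjusted p = 0.00176) and 0.78 on the log2 scale less the slide difference (adjusted p = 0.491). Fcrls, a microglial Fc receptor-like protein, rose by 1.16 (adjusted p = 1.53e-06) with a slide difference of 0.80, and Fcer1g, the shared signalling chain, by 0.73 (adjusted p = 0.012) with 0.24. Fcgr1, the high-affinity receptor, rose by 0.46 (adjusted p = 0.0234) with a slide difference of -0.06, although WT_WASHOUT and APP-PS1_WASHOUT overlapped on it and on Fcer1g. The Fcer1g call ended without APP-PS1_WASHOUT 1 or 2 (adjusted p up to 0.0837), and that of Fcgr1 without those arrays or WT_WASHOUT 2 (up to 0.157).

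Complement genes were called higher in 8 of 17 and lower in 0, beside 19.8% higher of all features, with medians of 0.43 in the washout contrast and 0.50 at the end of treatment. Less the slide difference the median was 0.08 and 10 of 17 lay above 0. The initiating subunits C1qa, C1qb and C1qc rose by 0.61, 0.52 and 0.65 and stood at 0.49, 0.54 and 0.45 less the slide difference, without passing that test (adjusted p 0.479 to 0.625), and the groups overlapped for C1qa and C1qc. C4b, the component cleaved after C1q, measured 2.97 to 3.27 in WT_WASHOUT and 4.05 to 4.78 in APP-PS1_WASHOUT. The difference was 2.41-fold (adjusted p = 1.04e-05), and 0.86 on the log2 scale less the slide difference (adjusted p = 0.314). The anaphylatoxin receptors C3ar1 and C5ar1 rose by 1.40 (adjusted p = 0.000126) and 0.84 (adjusted p = 0.00554), with 0.85 and 0.58 less the slide difference. Leaving out APP-PS1_WASHOUT 1 or 2 ended the calls of C1qa (adjusted p up to 0.0548), C1qb (0.081) and C1qc (0.0858). C1qa and C1qb were named with their values known.

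Among CC and CXC chemokines and receptors, 5 of 17 were called higher and 1 lower (35.3%, beside 27.5% of all features). Their median was 0.52 and, less the slide difference, 0.03. The median washout change was 0.28 without WT_WASHOUT 2, 0.18 without APP-PS1_WASHOUT 2, 0.23 under quantile normalization and 0.15 with normexp. The lower member was Cxcl1, a neutrophil attractant, which measured -3.49, -2.07, -3.10, -2.59 and -1.55 in WT_WASHOUT and -5.39, -4.79 and -4.21 in APP-PS1_WASHOUT (difference -2.23 ± 0.41, adjusted p = 0.000339). It stood at -2.91 less the slide difference (adjusted p = 0.103). Within slide 2 the treated carriers stood 2.77 log2 units below the same WT_WASHOUT arrays (-2.77), a value that is itself part of the -2.91. The WT_CTR mean of Cxcl1 was -5.12 ± 0.19 (SD, n = 4), below every WT_WASHOUT array.

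Antigen-presentation genes were called higher in 5 of 17 and lower in 0 (29.4%, near the 27.5% of all features), with a median of 0.56, which was 0.25 without APP-PS1_WASHOUT 2, and of 0.36 less the slide difference. Cd86, a costimulatory ligand for T cells, measured -2.99 to -2.67 in WT_WASHOUT and -2.21, -1.80 and -0.92 in APP-PS1_WASHOUT. The difference was 2.26-fold (adjusted p = 6.28e-05), and 1.08 on the log2 scale less the slide difference (adjusted p = 0.251). The immunoproteasome subunits Psmb9 and Psmb8 rose by 0.72 and 0.56 with slide differences of 0.31 and 0.21, and their groups overlapped. Ciita, the master activator of MHC class II genes, rose by 1.34 (adjusted p = 0.0389) beside a slide difference of 1.42. Without APP-PS1_WASHOUT 2 the calls of Psmb9 (adjusted p = 0.111) and Psmb8 (up to 0.396) ended, that of Psmb8 also without APP-PS1_WASHOUT 1 or WT_WASHOUT 2, 3, 4 or 5, and that of Ciita ended without any 1 of 7 arrays (up to 0.2), the exception being WT_WASHOUT 3.

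Interferon-stimulated genes were called higher in 3 of 19 and lower in 1, a share of 21.1% that lies below the background of 27.5%, with a median of 0.48 (0.30 without APP-PS1_WASHOUT 2) and 0.30 less the slide difference. Zbp1, a sensor of Z-form nucleic acids, rose by 1.13 (adjusted p = 0.0118; 1.29 less the slide difference, adjusted p = 0.441), and Oas1a, an antiviral oligoadenylate synthetase, by 0.79 (adjusted p = 0.0205; 0.60 less the slide difference). Xaf1, a proapoptotic interferon target, rose by 0.45 (adjusted p = 0.0445) with overlapping groups. Stat2, the interferon signal transducer, fell by 0.40 (adjusted p = 0.0115) beside a slide difference of -0.36, and with its 2 probes averaged it was higher by 0.43. Calls ended without APP-PS1_WASHOUT 1 or 2 for Zbp1 (adjusted p up to 0.0704) and Oas1a (0.112), without APP-PS1_WASHOUT 3 for Stat2 (0.0538), and without APP-PS1_WASHOUT 1 or 2 or WT_WASHOUT 1, 2 or 4 for Xaf1 (0.258).

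Cytokine, inflammasome and toll-like receptor genes were called higher in 7 of 18 and lower in 0 (19.8% of all features were higher), with a median of 0.28 in the washout contrast, 0.22 in the slide difference and 0.07 less it. Under quantile normalization the median washout change was -0.04. Nos2, the inducible nitric oxide synthase, measured -3.81 to -3.55 in WT_WASHOUT and -1.45 to -1.27 in APP-PS1_WASHOUT, a 4.98-fold difference (adjusted p = 1.7e-10). On the log2 scale its slide difference was 2.45 and its end-of-treatment difference -0.05. Its log2 washout change was 2.26 to 2.36 with 1 array left out in turn. Tnf rose by 0.96 (adjusted p = 9.09e-06) beside a slide difference of 0.91, with -0.10 at the end of treatment. Tlr7, an endosomal receptor for single-stranded RNA, rose by 2.43 (adjusted p = 2.8e-08) beside 1.44, which left 0.9960 (adjusted p = 0.328), and Tlr2, a receptor for bacterial lipoproteins, by 1.02 (adjusted p = 0.0196) beside 0.55. The Tlr2 call ended without WT_WASHOUT 4 or APP-PS1_WASHOUT 2 or 3 (adjusted p up to 0.0841).

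Genes of reactive astrocytes were called higher in 3 of 18 and lower in 0 (16.7%, below the background of 27.5%), with medians of 0.32 in the washout contrast, 0.29 less the slide difference and 0.39 at the end of treatment. Gfap measured 2.43, 2.59, 2.87, 2.74 and 2.86 in WT_WASHOUT and 3.73, 3.78 and 3.20 in APP-PS1_WASHOUT. Its groups did not overlap, and the difference was 1.83-fold (log2 0.87 ± 0.18, adjusted p = 0.00128), 0.74 less the slide difference (adjusted p = 0.442) and 0.96 at the end of treatment (adjusted p = 0.0471). Aspg, an asparaginase raised in reactive astrocytes, rose by 0.91 (adjusted p = 0.00299; 0.34 less the slide difference), and Cd44, a hyaluronan receptor, by 1.32 (adjusted p = 0.00584; 0.64 less the slide difference, and -0.03 at the end of treatment). Of 16 genes of astrocyte identity 1 was called (6.25%, below the 27.5% of all features). It was Aldoc, an aldolase of astrocytes, at 0.77 beside a slide difference of 0.71.

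Lysosomal genes were called higher in 6 of 26 and lower in 2 (30.8%, near the 27.5% of all features), with a median of 0.21 and 0.13 less the slide difference. The cathepsins Ctsz, Ctsh and Ctss rose by 0.66 (adjusted p = 0.00765), 0.63 (adjusted p = 0.00279) and 0.58 (adjusted p = 0.00814), and stood at 0.24, 0.42 and 0.70 less the slide difference. For all 3 the groups did not overlap, as for 31% of all features. The Ctss call ended without APP-PS1_WASHOUT 2 (adjusted p = 0.101).

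**Figure D3:**
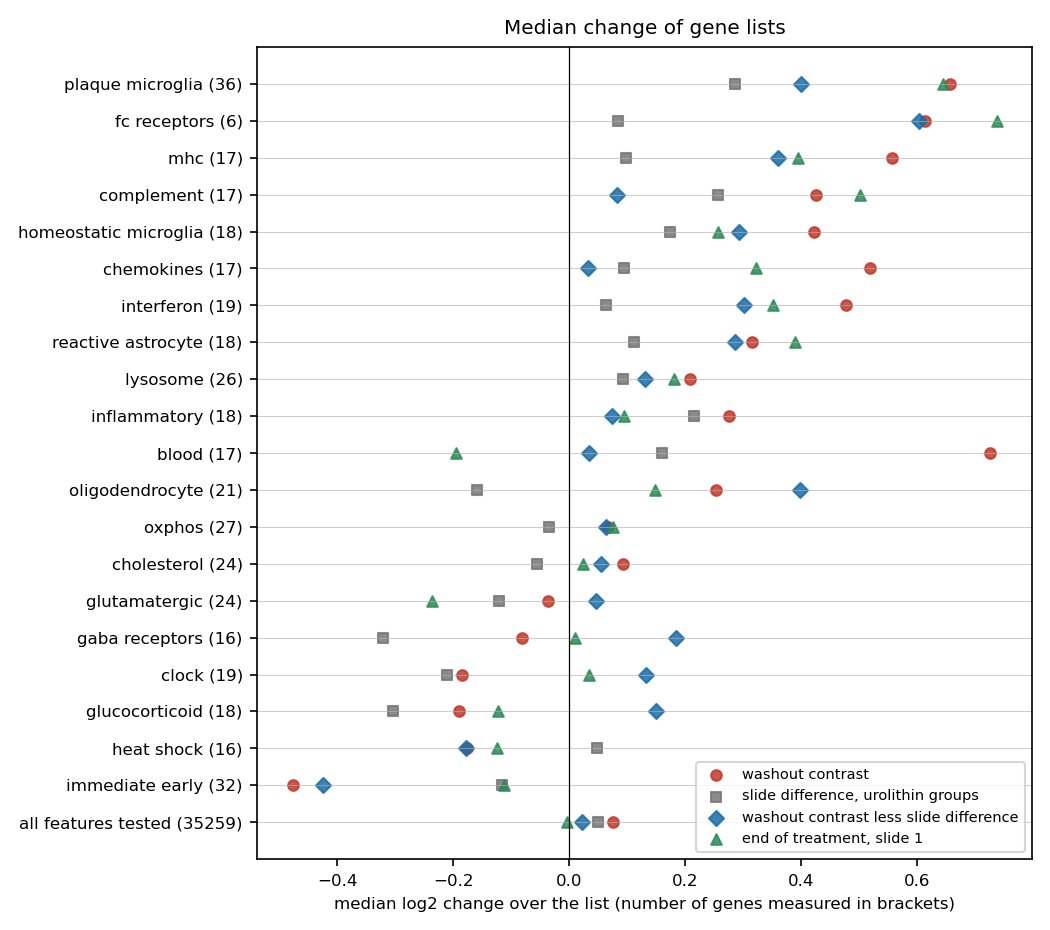
Median log2 change (horizontal axis) over gene lists, with the number of measured genes in brackets, in the washout contrast (circles), the slide difference (squares), the contrast less the slide difference (diamonds) and the end-of-treatment contrast on slide 1 (triangles). Plaque microglia, Fc receptor and MHC genes lie to the right of all features in the washout contrast, less the slide difference and at the end of treatment; immediate early genes lie to the left at -0.48 and -0.43 in the first 2 of these and at -0.11 in the third.

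Of the 12 largest rises by log2 change, 10 also had large slide differences in carriers treated with urolithin A (3.46 to 7.30), and for several of these the slide difference was the larger. The other 2 were Cst7 and Tbpl2. Pom121l2, a nucleoporin-like gene, was not well above background on any WT_WASHOUT array and at least 33.7-fold higher on the APP-PS1_WASHOUT arrays, with a fitted change of 7.07 beside a slide difference of 7.30. Casp14, a caspase of skin cells, changed by 5.50 (at least 14.8-fold) beside 5.30. Plaat5, a phospholipase and acyltransferase, measured -3.76 to -2.88 in WT_WASHOUT and 0.68 and 2.45 on the 2 APP-PS1_WASHOUT arrays without an outlier flag, a change of 5.08 beside a slide difference of 6.12. Vax2, a homeobox factor of the eye, measured -3.80 to -3.43 and 0.54 to 1.60, a change of 4.49 beside 5.34. Ces2f, Myl10 and Olfr715b changed by 4.71, 4.70 and 4.70 beside 4.89, 4.99 and 5.31. At the end of treatment these 7 genes differed by -0.46 to 0.85, none called.

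**Figure D4:**
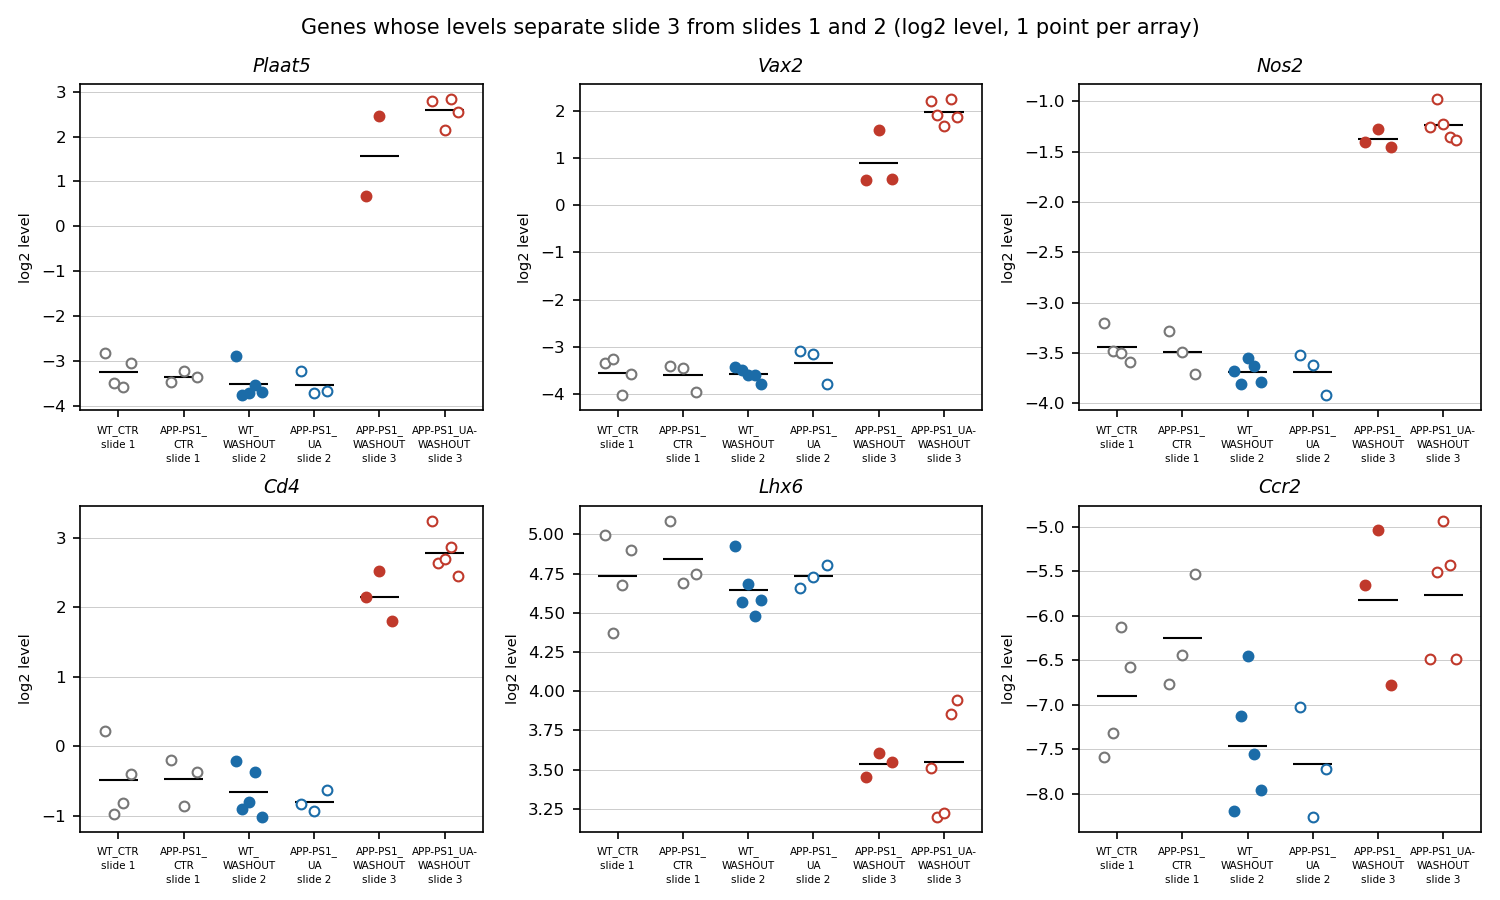
Log2 level (vertical axis) of 6 genes on each array, 1 point per array, by group and slide; filled points are the WT_WASHOUT and APP-PS1_WASHOUT arrays and bars are group means. The slide 3 groups of both treatments lie together and apart from slides 1 and 2 for Plaat5, Vax2, Nos2, Cd4 and Lhx6; for Ccr2, 0 WT_WASHOUT arrays were well above background and the groups overlap.

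Falls were fewer than rises under this scaling. The largest belonged to major urinary protein genes, a liver family of near-identical copies whose probes may not tell members apart. Mup17 measured -4.82, 2.40, 1.63, -3.01 and -4.87 in WT_WASHOUT and -5.37, -7.90 and -8.00 in APP-PS1_WASHOUT (difference -5.36 ± 1.38, adjusted p = 0.00618). Mup18 and Mup1 followed the same arrays, with 3.13 and 1.93 on WT_WASHOUT 2 and 2.41 and 1.10 on WT_WASHOUT 3. Fgg, the gamma chain of fibrinogen made by the liver, was likewise highest on WT_WASHOUT 2 and 3, at -1.67 and -2.31, against -5.43 to -5.24 on the other 3 (difference -2.23, adjusted p = 0.0193). Whether these 2 samples held RNA of another tissue was not tested. Less the slide difference the 4 genes had adjusted p between 0.391 and 0.786. The calls of Mup17, Mup18, Mup1 and Fgg were absent from a fit on the 8 arrays alone, that of Mup1 ended without WT_WASHOUT 2 or 3 or any APP-PS1_WASHOUT array (adjusted p up to 0.0815), and that of Fgg without APP-PS1_WASHOUT 3 (0.122).

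Immediate early genes, which neurons switch on within minutes of activity or stimulation, were called lower in 12 of 32 and higher in 1, Homer1, where 7.71% of all features were lower. Their median was -0.48 in the washout contrast, -0.12 in the slide difference, -0.43 less it and -0.11 at the end of treatment. The mean level of the list was 1.33, 1.29, 1.41, 1.43 and 1.35 on the WT_WASHOUT arrays and 0.69, 0.96 and 0.72 on the APP-PS1_WASHOUT arrays. On the other 16 arrays it lay between 0.35 and 1.07, so WT_WASHOUT stood above every other group, also above the treated carriers of its own slide (0.74, 1.03 and 0.41) and above WT_CTR (0.50 to 0.81). Less the slide difference, 26 of 32 members lay below 0 and 0 were called by limma.

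Dusp1, a phosphatase that switches off MAP kinases, measured 2.23, 2.50, 2.38, 2.41 and 2.31 in WT_WASHOUT and 0.55, 1.13 and 1.16 in APP-PS1_WASHOUT, a 2.67-fold fall (log2 -1.42 ± 0.29, adjusted p = 0.00101). It was -0.77 less the slide difference (adjusted p = 0.587) and -0.00 at the end of treatment, and the test of the washout against the end-of-treatment difference gave -1.42 (adjusted p = 0.0287). Fos, the classic activity marker, measured 1.92 to 2.25 in WT_WASHOUT and 0.25, 0.99 and 0.65 in APP-PS1_WASHOUT (difference -1.42, adjusted p = 0.0402). Egr2, a zinc-finger factor, measured 0.71 to 1.65 in WT_WASHOUT and -0.94 to -0.30 in APP-PS1_WASHOUT (difference -1.75, adjusted p = 0.0296). Ccn1, a matrix protein, and Btg2, an antiproliferative cofactor named with its values known, fell by 1.33 (adjusted p = 0.00175) and 1.17 (adjusted p = 0.00516). Slide differences were -0.29 for Fos, -0.05 for Egr2, -0.08 for Ccn1 and -0.36 for Btg2, and end-of-treatment differences -0.17, -0.43, 0.01 and 0.16. The groups did not overlap for any of these 5, nor for 31% of all features. The Fos call ended without any 1 of the 8 arrays (adjusted p up to 0.145), and the Egr2 call without WT_WASHOUT 3 or 5 or any APP-PS1_WASHOUT array (up to 0.108).

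The promoters of Dusp1 and Btg2 are shown because each holds the cyclic AMP response element TGACGTCA (capitals, a palindrome), 1.62% of windows having it. It was found in 2 of the 9 windows of fallen immediate early genes in the RefSeq table (12 fell) and in 0 of 17 windows of the other measured members. The other motifs searched were GGAAGT (3 of 9 and 4 of 17), GAGGAA (1 of 9 and 4 of 17) and TGAGTCA (0 of both). These too are letter matches chosen with the sequences in view, not sites of binding, and whether the element goes with the falls was not tested.
Dusp1 (chr17:26508473-26508722, - strand): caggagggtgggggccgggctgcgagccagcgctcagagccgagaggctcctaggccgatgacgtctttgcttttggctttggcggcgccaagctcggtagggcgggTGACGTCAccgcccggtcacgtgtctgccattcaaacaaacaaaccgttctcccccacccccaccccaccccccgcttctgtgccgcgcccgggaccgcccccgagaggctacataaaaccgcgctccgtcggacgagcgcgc
Btg2 (chr1:134079156-134079405, - strand): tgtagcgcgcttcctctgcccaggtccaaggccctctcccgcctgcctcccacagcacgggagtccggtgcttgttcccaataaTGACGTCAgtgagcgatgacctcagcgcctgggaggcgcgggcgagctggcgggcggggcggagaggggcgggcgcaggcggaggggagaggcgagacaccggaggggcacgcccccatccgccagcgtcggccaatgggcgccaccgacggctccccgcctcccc

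Heat shock genes were called lower in 4 of 16 and higher in 0 (25%, below the 27.5% of all features, of which 7.71% were lower), with medians of -0.18 in the washout contrast and less the slide difference. The washout median was -0.08 without APP-PS1_WASHOUT 1. Hspa1a, an inducible HSP70, measured 1.96, 2.82, 2.77, 2.96 and 2.53 in WT_WASHOUT and 1.74, 1.88 and 1.74 in APP-PS1_WASHOUT (difference -0.82, adjusted p = 0.00382). Hspa1b, its near-identical copy, measured -0.11 on WT_WASHOUT 1 and 1.14 to 1.33 on the other 4, so that its groups overlapped on that array (difference -1.01, adjusted p = 0.0195). Probes may not separate the 2 copies. Dnajb1, an HSP40 partner, fell by 0.84 (adjusted p = 0.00033) and Stip1, a cochaperone, by 0.61 (adjusted p = 0.00354), with slide differences of -0.44 and -0.38. The mean level of the list was 3.81 on WT_WASHOUT 1, the array in row 1, and 4.07 to 4.13 on the other 4, which lay in row 2. In APP-PS1_WASHOUT, all in row 1, it was 3.68 to 3.92. On slide 1 row and genotype changed together. There the list measured 3.69 to 3.84 in WT_CTR (row 1) and 3.63 to 3.71 in APP-PS1_CTR (row 2). In APP-PS1_UA-WASHOUT it measured 3.70 on the only array in row 1 and 3.65 to 4.02 in row 2. The part of row in the mean level of the list was not tested. With row in the fit, the Hspa1a and Hspa1b calls were lost. The Hspa1b call also ended without APP-PS1_WASHOUT 1 or 2 (adjusted p up to 0.0702).

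**Figure D5:**
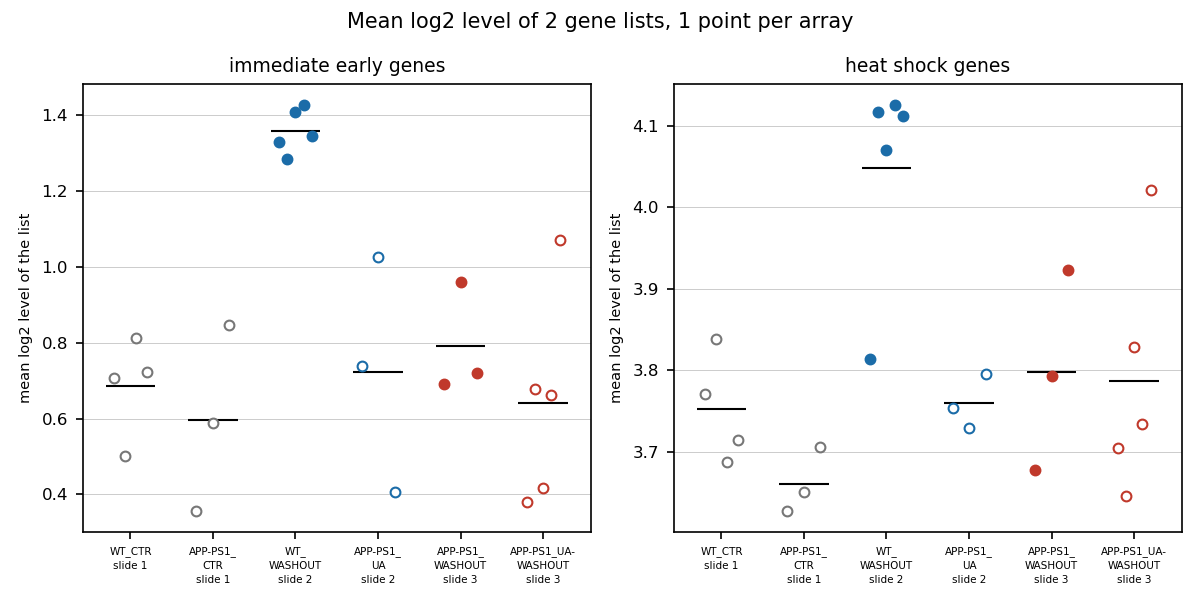
Mean log2 level (vertical axis) over the 32 immediate early genes (left) and the 16 heat shock genes (right) on each array, 1 point per array, by group and slide; filled points are WT_WASHOUT and APP-PS1_WASHOUT, and bars are group means. The 5 WT_WASHOUT arrays lie above all others for immediate early genes (1.29 to 1.43), and 4 of the 5 do for heat shock genes.

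GABA receptor subunit and scaffold genes were called lower in 4 of 16 and higher in 1 (31.2%, near the 27.5% of all features). Their median was -0.08, with a slide difference of -0.32 and 0.18 less it. Gabra2 measured 2.50, 2.22, 2.69, 2.65 and 1.82 in WT_WASHOUT and 1.43, 1.83 and 1.86 in APP-PS1_WASHOUT (difference -0.67, adjusted p = 0.0289), with -0.32 between slides and -0.85 at the end of treatment (adjusted p = 0.302). Gabrg3 rose by 0.48 (adjusted p = 0.0195), with -0.62 at the end of treatment. Calls ended without 1 array for Gabra2 (WT_WASHOUT 3 or 4, APP-PS1_WASHOUT 1 or 2; adjusted p up to 0.146) and Gabrg3 (APP-PS1_WASHOUT 1 or 2; up to 0.0598).

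Of 20 interneuron markers 2 were called higher and 2 lower, a share of 20% that lies below the 27.5% of all features. Lhx6, the homeobox factor of parvalbumin and somatostatin cells, measured 4.48 to 4.92 in WT_WASHOUT and 3.45 to 3.60 in APP-PS1_WASHOUT (difference -1.11, adjusted p = 4.28e-05) beside a slide difference of -1.18. Gad1, the GABA-synthesizing enzyme, fell by 0.50 beside -0.54, and Sst, the neuropeptide somatostatin, rose by 0.58 beside 0.55. Dlx6, a homeobox factor of the same lineage, rose by 1.16 (adjusted p = 0.00275) with a slide difference of 0.13 and overlapping groups, and differed by -0.87 at the end of treatment. The test between those 2 differences gave 2.03 (adjusted p = 0.00136). With 1 array left out in turn, the washout change of Dlx6 ran from 0.72 to 1.54 and stayed called (limma adjusted p up to 0.037).

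Of 18 presynaptic genes, 3 were called higher (16.7%, below the 19.8% of all features). Cplx2, a complexin that clamps vesicle fusion, measured 5.83 to 6.27 in WT_WASHOUT and 7.48 to 7.52 in APP-PS1_WASHOUT (difference 1.43, adjusted p = 1.79e-07) beside a slide difference of 1.21. Snap25, a SNARE protein, rose by 0.75 beside 0.65, and Syt1, the calcium sensor of release, by 0.38 beside 0.19, losing its call without APP-PS1_WASHOUT 2 or 3 (adjusted p up to 0.0778). Glutamate receptor, scaffold and transporter genes were called in 3 of 24 (12.5%), with a median of -0.04, and 0.05 less the slide difference. Hippocampal subfield markers were called in 1 of 18 (5.56%) and neurogenesis genes in 1 of 17 (5.88%). Each of these shares lay below the 27.5% of all features.

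Oligodendrocyte, precursor and myelin genes were called higher in 2 of 21 and lower in 0 (9.52%, below the 27.5% of all features). Their median was 0.25, with a slide difference of -0.16 and 0.40 less it. Less the slide difference 20 of 21 lay above 0, against 18660 of 35259 features, and 0 were called by limma. The washout median was 0.13 without WT_WASHOUT 2. Mag, a myelin-associated glycoprotein, measured 2.35, 2.28, 3.32, 2.71 and 3.26 in WT_WASHOUT and 3.71, 3.80 and 3.85 in APP-PS1_WASHOUT (difference 1.01, adjusted p = 0.00798), with 0.62 less the slide difference (adjusted p = 0.651). Within slide 2 the list's median difference of treated carriers from WT_WASHOUT was 0.05, and within slide 3 that of APP-PS1_WASHOUT from APP-PS1_UA-WASHOUT was 0.39.

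Genes of the amyloid precursor family, secretases and amyloid-degrading enzymes, a list that also held Prnp, were called higher in 2 of 19, 1 of them Prnp, and lower in 2. That share (21.1%) lay below the 27.5% of all features. App itself measured 6.10 to 6.40 in WT_WASHOUT and 6.26 to 6.58 in APP-PS1_WASHOUT, a difference of 0.14 (adjusted p = 0.355), 0.24 at the end of treatment (adjusted p = 0.768). The sources used here do not say whether the 2 App probes detect the transgene's message, so App is no check of the labels. Bace2, a secretase, rose by 1.02 (adjusted p = 0.0314), although it differed by -0.73 at the end of treatment. Mme, the amyloid-degrading peptidase neprilysin, and Aph1b, a gamma-secretase subunit, fell by 0.74 and 0.47 beside slide differences of -0.58 and -0.63. Calls ended without 1 array for Bace2 (WT_WASHOUT 2 or 4, APP-PS1_WASHOUT 1 or 3; adjusted p up to 0.168) and Aph1b (APP-PS1_WASHOUT 1 or 2; up to 0.0919).

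Oxidative phosphorylation subunits were called higher in 5 of 27 and lower in 1 (22.2%; median 0.07, the same as all features), mitochondrial dynamics genes in 0 of 17 (0 also less the slide difference), autophagy and mitophagy genes in 5 of 23 (2 higher), AHR and NRF2 targets in 2 of 17 and DNA repair genes in 4 of 25. Cholesterol genes were called higher in 5 of 24 and lower in 2, clock genes in 2 of 19 and glucocorticoid targets in 1 of 18, all 3 of these last lower. Integrated stress genes were called in 3 of 17, all higher. Each of these shares but that of cholesterol genes (29.2%) lay below the 27.5% of all features.

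Markers of cells other than hippocampal tissue moved as follows, and their part in the results above was not tested. Blood and immune cell markers were called higher in 7 of 17 (19.8% of all features were higher), with a median of 0.72 (0.37 without WT_WASHOUT 1, 0.29 with normexp), a slide difference of 0.16 and 0.03 less it, and their mean level was -2.49 to -1.87 in WT_WASHOUT and -1.94 to -1.33 in APP-PS1_WASHOUT. Cd4 rose by 2.81 (adjusted p = 7.52e-08) beside a slide difference of 3.58. Nkg7, a granule protein of killer cells, rose by 1.83 beside 1.18. Ccr2 and Cd3g were well above background on 0 WT_WASHOUT and 2 APP-PS1_WASHOUT arrays, and were at least 1.28-fold and 1.36-fold higher. On the log2 scale their slide differences were 1.91 and 1.26. With 1 array left out in turn, their log2 washout changes ran from 1.24 to 2.11 and from 0.84 to 2.29. Their calls ended without APP-PS1_WASHOUT 1 or 2 (adjusted p up to 0.106 and 0.277) and, for Cd3g, WT_WASHOUT 4. Choroid plexus markers were called in 0 of 15 by limma. Their median was 0.34 in the washout contrast (-0.71 without APP-PS1_WASHOUT 3, 1.52 without WT_WASHOUT 5), 2.34 in the slide difference, -1.68 less it, where 15 of 15 lay below 0, and 1.82 at the end of treatment, where 15 of 15 lay above 0. The list varied widely between arrays of both groups. Their mean level was -2.90, -0.92, 1.89, -2.59 and 3.22 in WT_WASHOUT and -0.59, -1.19 and 2.71 in APP-PS1_WASHOUT, and Ttr, the plexus transthyretin, spanned 1.21 to 6.89 and 3.61 to 7.80. Endothelial genes were called lower in 2 of 15 (13.3%) and mural and meningeal genes higher in 1 of 15 (6.67%). Markers of other brain regions were called higher in 2 of 24 (8.33%), and pan-neuronal genes in 3 of 13 (23.1%, 2 higher). Of all features 27.5% were called, 19.8% higher and 7.71% lower.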

How the data were processed

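Hippocampal RNA was labelled with Cy3 and hybridised to 1-colour Agilent mouse arrays of 62976 spots, of which 3671 are controls. Per the file headers, the authors' scanner files came from Feature Extraction and give processed signal intensity, already background-subtracted, and per-spot flags for outliers and signal well above background; the submitters' processing notes name version 12.0.3.1. The authors also deposited a score per probe, which lay within 0.00502 of each array's log signal standardized to its own mean and SD; its column medians ran from -0.17 to -0.06. The sources used here give no other step.

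Here log2 of the processed signal intensity deposited by the authors, minus the 75th percentile of its array, was used. Outlier-flagged spots were dropped (3825 values) and spots of a probe averaged. Probes well above background on at least 3 arrays were kept, and the brightest probe stood for a gene, which left 35259 features. RefSeq tables gave 1 symbol to 32994 of 56605 probes and none to the other 23611, which are not named. limma 3.58.1 in R 4.3.3 fitted group means over all 24 arrays (6 groups, or 7 where APP-PS1_UA was split by slide), and tables and plots were made with matplotlib 3.10.9, numpy 2.4.6 and pandas 2.3.3 under Python 3.11.15. The limma fit was tested on simulated data without a slide, row or stage shift, so that test does not bear on slide effects. "At least" folds set the brighter group's mean against the lowest signal well above background. The number of arrays limits precision.

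Genes were named by a rule: the 12 largest rises and falls among called genes without overlap, the 10 largest in each direction less the slide difference, the 6 largest with a slide difference at least as large, up to 4 called members per list, and App, Prnp, Cst7, Trem2, Gfap, Apoe and Wdfy1. Where the values of these genes repeat a pattern, only some are described, and some genes are not reported here. The groups, the 36 gene lists and this rule were chosen with earlier results of these data known. Alternatives covered scaling, background correction, filters, probes, blocks and leaving out arrays.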

Additional observations from a re-analysis of the deposited data

Results flagged for a closer look

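Among the 88 genes examined, 6 had an array far from the rest of WT_WASHOUT by Dixon's criterion, which chance meets in about 1 in 20 groups. WT_WASHOUT 1 stood apart for Plaat5 (-2.88), Ces2f (-7.48, not well above background) and Hspa1b (-0.11), WT_WASHOUT 4 for Olfr715b (-8.58, not well above background), and WT_WASHOUT 5 for C5ar1 (-4.47) and Bace2 (-0.39).

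For 30 of the 88 genes the washout difference and the end-of-treatment difference differed in the limma test of that difference, which called 14.3% of all features. Many of the 88 were named for a large washout change, so a larger share is built into their choice. The washout difference lies between slides and the end-of-treatment difference within slide 1, so that slide and stage cannot be told apart in these values. The log2 excess of the washout difference was 6.21 for Pom121l2, 5.54 for Casp14, 5.20 for Plaat5, 5.17 for Myl10, 5.14 for Ces2f, 4.54 for Vax2 and 4.24 for Olfr715b. It was 4.50 for Tbpl2, 4.03 for Cxcr1, 3.77 for Olfr1314 and 2.35 for Ppm1n, the genes near background. Among immune and microglial genes it was 2.93 for Baiap2l2, 2.80 for Cd4, 2.37 for Nos2, 1.95 for Tlr7, 1.84 for Nkg7, 1.13 for Itgam, 1.08 for Siglech and 1.07 for Tnf. Among neuronal genes it was 2.03 for Dlx6, 1.33 for Cplx2, 1.09 for Gabrg3, 0.74 for Snap25 and -1.22 for Lhx6. Among amyloid-processing genes it was 1.75 for Bace2 and -0.86 for Mme. Immediate early and heat shock genes lay below 0, at -1.42 for Dusp1, -1.33 for Ccn1, -1.33 for Btg2 and -0.67 for Dnajb1.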

How the results depend on the processing

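The washout contrast called 9702 features, and 5965 with normexp or 6351 with probes well above background on all arrays; leaving out 1 array gave 7124 to 10076. The share of calls that were higher was 72%, 56.7% with median centring, 46.1% with quantile normalization, 41.2% with the authors' scores, 61.1% with the strict filter and 62.3% with normexp. Less the slide difference, 22 calls became 8 with normexp (all 8 among the 22), 34 without a background filter (21), 12 with array row as a block (5), 36 with the authors' scores (19) and 114 (19 higher, 95 lower) with the slide difference from row 1 arrays (15); leaving out 1 array gave 14 to 26, the lowest without APP-PS1_UA 2. The slide difference called 19081 features without a filter, 7220 with the strict filter and 4642 from row 1 arrays (8874 to 10795 with 1 array left out). The end-of-treatment contrast called 31 without a filter and 8 with array row as a block, and 21 to 33 with any 1 of its arrays left out, against 60. The difference between the washout and end-of-treatment contrasts called 5029, and 2018 with normexp, 2954 with the strict filter and 784 with array row as a block (3845 to 5983 with 1 array left out). The cause of these moves was not tested.

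Signs turned for Apoe under quantile normalization (-0.10), Stat2 (0.43) and Wdfy1 (0.21) with probes averaged, Tbpl2 without a filter (-0.0704, and -1.90 less the slide difference) and Ppm1n with probes averaged (-0.0033 less the slide difference). Replicate numbers did not pair the samples: same-numbered arrays correlated at 0.144, 0.009 and 0.025. With the replicate number as a block, 8803 features were called in the washout contrast, 9 less the slide difference (8 of them among the 22) and 34 at the end of treatment. Normexp on median signals and the row 1 slide difference were chosen after seeing the data. The planned normexp on mean signals was not run, since the authors' scanner output holds no mean signal column. Slide as a random block was not run for the slide difference or the contrast less it. Transgene and slide cannot be told apart within the 8 arrays.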
